A study of Mus musculus with 24 samples.

Results

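The nuclear-encoded subunits of oxidative phosphorylation were followed in mouse dorsal root ganglia, the clusters of sensory neurons beside the spinal cord, after a sciatic nerve lesion and after loss of Mettl14. Members were taken by symbol: names beginning with Nduf, Uqcr, Atp5 or Cox4 to Cox8, together with Sdha, Sdhb, Sdhc, Sdhd and Cycs, and without symbols holding "-ps". The rule gave 93 of the 24421 symbols in the RNA-seq table, of which 88 had enough counts to be tested, and the same 93 of 24411 symbols in the MeRIP-seq table, of which 90 were tested. They comprise 36 subunits of complex I, 7 complex I assembly factors (the Ndufaf genes, which are not subunits), 4 subunits of complex II, 8 of complex III, 20 of complex IV (Ndufa4 and Ndufa4l2 included), 15 of complex V, 2 symbols kept apart as complex V accessory (Atp5s and Atp5sl), and Cycs. The label complex V accessory goes by symbol alone. RefSeq names Atp5s Dmac2l and Atp5sl Dmac2, so the label does not place either gene in complex V. None of the 13 subunits encoded by mitochondrial DNA is listed in these tables. Transcript lengths were not used here, so levels are compared between libraries and not between genes.

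RNA-seq covered 4 groups of 3 libraries from L4 and L5 ganglia of C57BL/6 mice: Mettl14cKO at SNLD1, Mettl14cKO naive, WT at SNLD1 and WT naive. Mettl14cKO is the name the sample titles give to the Mettl14-/- genotype, and no Cre driver is named there. SNLD1 is day 1 after the sciatic nerve lesion, described in the protocol as a crush with a sham operation as its counterpart, and the titles do not say whether naive mice were operated. MeRIP-seq, in which an antibody to m6A (N6-methyladenosine, a methyl mark on mRNA adenines) pulls down RNA fragments, gave 3 IP and 2 input libraries from WT ganglia at SNLD1 and the same numbers from naive WT ganglia. miCLIP, which maps single m6A positions through mutations left by the cross-linked antibody, gave 1 WT library labelled SNL and 1 labelled naive. Whether libraries of a group came from different mice is not stated, so p-values measure the spread between these libraries only.

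RNA-seq libraries held 5707837 to 12639160 counts and MeRIP-seq libraries 846785 to 19653733. Mettl14 itself, which encodes the RNA-binding partner of the m6A methyltransferase Mettl3, had 14.2, 16.9 and 15.6 CPM in Mettl14cKO at SNLD1 and 14.2, 18.9 and 15.0 CPM in naive Mettl14cKO, against 20.1, 20.7 and 19.4 CPM in WT at SNLD1 and 23.3, 22.9 and 24.1 CPM in naive WT (CPM, a count scaled to the size of its library by edgeR's TMM method). It was lower in every Mettl14cKO library than in every WT library, with most of its signal still present. Neuronal markers (13 genes including Tubb3, Snap25 and Scn10a) summed to 9445 to 12127 CPM in Mettl14cKO at SNLD1, 9189 to 11379 in naive Mettl14cKO, 10786 to 13379 in WT at SNLD1 and 11862 to 13547 in naive WT, and those of satellite glia, Schwann cells and fibroblasts were also present in every library.

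Oxidative phosphorylation passes electrons from NADH (complex I) and succinate (complex II) through ubiquinone, complex III, cytochrome c and complex IV to oxygen, and complex V makes ATP from the proton gradient that results. Sensory neurons with long axons depend on it for ion pumping and transport. Most subunits are encoded in the nucleus, and the transcription factors NRF1, YY1 and those of the ETS family (such as GABP) are known regulators of many of these genes.

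Because NRF1 is a known regulator of these genes, their promoters were searched for TGCGCA, the core of its motif, which reads the same on both strands. RefSeq promoters (GRCm38.p6, 250 bases before the start to 50 after) were on hand for 77 of the 93 members, and 19 of them (24.7%) held it, against 14.3% of 10100 promoters of genes tested in RNA-seq and 8.06% of all 27025 promoters. On either strand, the YY1 motif AAGATGGC was in 10 (13%), against 4.53% of those of tested genes. The ETS motif CCGGAAGT, likewise on either strand, was in 5 (6.49%), against 7.90% of those of tested genes. These shares describe letters in a window and not bound sites. The median GC content was 58.3% for members and 60.7% for tested genes. Printed here are the promoters of Ndufaf4, the member with the smallest p for genotype after lesion, of Cox6a1, which carried the best-covered miCLIP site of the family, and of Sdha, the flavoprotein of complex II, with 2 matches. Each reads 5′ to 3′ on the strand of its gene, and capitals mark TGCGCA.
Ndufaf4 (chr4:24897833-24898132, plus strand): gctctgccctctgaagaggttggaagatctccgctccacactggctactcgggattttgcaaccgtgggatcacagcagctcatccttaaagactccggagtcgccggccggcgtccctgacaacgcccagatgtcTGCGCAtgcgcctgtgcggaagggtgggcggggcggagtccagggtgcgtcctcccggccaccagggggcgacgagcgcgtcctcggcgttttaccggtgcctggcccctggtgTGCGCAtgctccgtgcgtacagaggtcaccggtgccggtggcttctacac
Cox6a1 (chr5:115348909-115349208, minus strand): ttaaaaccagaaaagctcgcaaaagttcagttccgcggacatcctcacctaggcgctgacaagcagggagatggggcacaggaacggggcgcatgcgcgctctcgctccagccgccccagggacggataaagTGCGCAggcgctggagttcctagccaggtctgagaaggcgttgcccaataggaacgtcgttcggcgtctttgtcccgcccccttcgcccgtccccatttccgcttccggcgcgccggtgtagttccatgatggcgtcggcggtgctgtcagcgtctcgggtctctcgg
Sdha (chr13:74350191-74350490, minus strand): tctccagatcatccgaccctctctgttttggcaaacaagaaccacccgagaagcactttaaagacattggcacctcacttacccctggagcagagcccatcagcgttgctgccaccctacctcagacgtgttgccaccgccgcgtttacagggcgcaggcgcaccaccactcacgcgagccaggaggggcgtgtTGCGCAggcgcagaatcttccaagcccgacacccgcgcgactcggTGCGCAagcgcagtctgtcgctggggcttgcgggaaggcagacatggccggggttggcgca

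Also shown are the bases around the miCLIP positions with the most mutated reads, as the authors' lists print them, with the listed adenine in capitals (mm10).
Cox6a1, chr5:115348607, minus strand: agAcc
Ndufb7, chr8:83571587, plus strand: ggAcc
Atp5b, chr10:128084404, plus strand: agAcc
Uqcr11, chr10:80406756, minus strand: agAcc

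RNA-seq asked whether lesion or loss of Mettl14 alters these mRNAs. In WT ganglia no member was called between SNLD1 and naive libraries by edgeR's quasi-likelihood test (adjusted p under 0.05 over all 13291 genes tested), where 0.948% of all genes were called higher and 0.0752% lower. No tested member had an unadjusted p under 0.05, against 7.34% of all genes, and DESeq2 also called 0. The 88 tested members had a median log2 difference of −0.05, with 17 above 0, against −0.01 and 47.1% above 0 over all genes. On leaving out single libraries the median ran from −0.14 (9 of 89 above 0, without WT SNLD1 library 1) to 0.014 (51 of 90, without naive WT library 3), and it was also above 0 without WT SNLD1 library 3 (0.011, 53 of 90). By complex the median was −0.07 for complex I subunits, −0.01 for complex II, −0.07 for complex III, −0.04 for complex IV and −0.07 for complex V. Fewer cells of one type and less RNA per cell cannot be told apart in such bulk tissue.

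The members at the ends of that comparison show how the libraries spread. Uqcrc1, a core protein of complex III, had 175, 81.9 and 179 CPM in WT at SNLD1 and 206, 100.0 and 302 CPM in naive WT, a log2 difference of −0.49 ± 0.31 (SE, edgeR adjusted p = 0.875). The groups overlapped, and in both the library numbered 2 was the lowest. Ndufaf4 (0.10), Uqcrc2 (0.08) and Ndufa9 (0.08) had the smallest p among those above 0. Cox6a2, the muscle and heart isoform of the complex IV subunit VIa, was near the limit of detection at 1.07, 0.801 and 0.854 CPM in WT at SNLD1, against 1.26, 1.23 and 1.22 CPM in naive WT, without overlap (log2 −0.45 ± 0.39, adjusted p = 0.975). It and Cox6b2 (log2 −0.40) were the 2 members without overlap, both lower. Non-overlap in that direction was seen in 4.95% of all genes.

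In Mettl14cKO ganglia the members' median stood slightly higher at SNLD1 than in naive libraries, without any single call. The median log2 difference was 0.21 with 80 of 88 above 0, against 0.01 and 51.1% over all genes. The call rate over all genes was 0.624% higher and 0.0602% lower, and 3 members had an unadjusted p under 0.05 against 10.6% of all genes. DESeq2 likewise called 0. Medians were 0.23 for complex I subunits (34 of 36 above 0), 0.13 for complex II (3 of 4), 0.27 for complex III (8 of 8), 0.32 for complex IV (14 of 15), 0.21 for complex V (14 of 15) and 0.10 for the Ndufaf genes (5 of 7).

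Cox6a1, the ubiquitous isoform of subunit VIa, had the smallest p. It had 143, 182 and 122 CPM in Mettl14cKO at SNLD1, against 109, 87.5 and 94.6 CPM in naive Mettl14cKO (log2 0.62 ± 0.24 SE, edgeR adjusted p = 0.330). The groups did not overlap. Cox4i1, the main isoform of subunit IV, had 862, 986 and 805 CPM at SNLD1, against 714, 667 and 649 CPM in naive Mettl14cKO (log2 0.39 ± 0.16, adjusted p = 0.373), again without overlap. In WT the same pair of genes overlapped between SNLD1 and naive libraries. Ndufb2, an accessory subunit of complex I, had 69.4, 102 and 40.5 CPM at SNLD1 and 55.0, 42.9 and 38.5 CPM in naive Mettl14cKO (log2 0.64 ± 0.29, adjusted p = 0.447), with overlap. On the lower side, Ndufs1, the largest core subunit of complex I, had 488, 481 and 508 CPM at SNLD1 against 521, 621 and 510.3 CPM in naive Mettl14cKO (log2 −0.16, adjusted p = 0.781). Together with Ndufs3, Ndufs7 and Sdhc, Cox6a1 and Cox4i1 made 5 members without overlap on the higher side, against 8.32% of all genes, and Ndufs1 was the 1 on the lower side, against 9.38%.

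The test of the difference itself, the lesion effect in Mettl14cKO minus that in WT, called no gene in edgeR (0.0% of 13291 in each direction, 3.7% at an unadjusted p under 0.05, of which none was a member), and 3 genes, none of them a member, in DESeq2. The median over the tested members was 0.29 with 83 above 0, against 0.01 and 51.6% over all genes. It ran from 0.10 (73 of 90) to 0.48 (84 of 89) on leaving out single libraries. Cox4i1 (log2 0.45), Cox6a1 (0.59) and Ndufa12 (0.36) had the smallest p above 0, and Ndufs1 (−0.23), Atp5s (−0.18) and Sdha (−0.04) below it, all with an adjusted p of 0.998 or more.

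Comparing genotypes in naive ganglia, no member was called (0.173% of all genes were higher and 0.113% lower in Mettl14cKO), and DESeq2 called 0. The median log2 difference was −0.01 with 40 of 88 members above 0, against 50.6% of all genes. It ran from −0.15 (18 of 90, without naive Mettl14cKO library 1) to 0.11 (66 of 89, without naive Mettl14cKO library 3). In the full set 2 members against 7.6% of all genes had an unadjusted p under 0.05. After lesion no member was called by edgeR either (0.948% of all genes higher, 0.512% lower). Of the 88 members, 8 had an unadjusted p under 0.05, a smaller share than the 14.4% of all genes, and all 8 were higher in Mettl14cKO. The median there was 0.28 with 80 of 88 above 0, against 0.00 and 50.5% over all genes. It ran from 0.07 (63 of 90) to 0.42 (81 of 89) on leaving out single libraries. Complex medians were 0.26 for complex I subunits, 0.32 for the Ndufaf genes, 0.12 for complex II, 0.30 for complex III, 0.36 for complex IV and 0.22 for complex V. Marker sums of other cells moved with this comparison: those of fibroblasts were 2631 to 4289 CPM in Mettl14cKO against 1720 to 2184 CPM in WT at SNLD1, and those of satellite glia 2464 to 2589 against 2941 to 4245 CPM, both without overlap. Their part in the members' shift was not tested. This comparison and the lesion effect in Mettl14cKO share their 3 Mettl14cKO libraries at SNLD1, so their values are not separate evidence.

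A pair of assembly factors had the smallest p values among complex I genes. Ndufaf4, needed to assemble complex I, had 162, 194 and 170.3 CPM in Mettl14cKO at SNLD1 against 115, 136 and 105 CPM in WT at SNLD1. In naive ganglia it had 179, 167 and 146 CPM in Mettl14cKO against 105, 133 and 94.1 CPM in WT. Every Mettl14cKO library lay above every WT library. The log2 difference was 0.57 ± 0.16 (SE) both after lesion (edgeR adjusted p = 0.0927) and in naive ganglia (adjusted p = 0.284). Its adjusted p after lesion ran from 0.0363 to 0.325 over the alternatives tried. It passed with DESeq2 (adjusted p = 0.0433), which called 1.72% of all genes higher. Ndufaf1, which works at an early step of complex I assembly, had 132, 129 and 126 CPM in Mettl14cKO at SNLD1, against 102, 104 and 88.5 CPM in WT at SNLD1 (log2 0.39 ± 0.15, adjusted p = 0.204), without overlap. In naive ganglia it had 129.6, 119.9 and 103 CPM in Mettl14cKO and 104, 106 and 88.3 CPM in WT, with overlap. The other 5 Ndufaf genes overlapped between genotypes after lesion. Non-overlap with Mettl14cKO higher was seen in 9.66% of all genes after lesion and in 6.11% in naive ganglia. Coa7, another assembly factor, was called higher in Mettl14cKO at SNLD1, with a mean of 72.4 CPM against 38.6 CPM in WT at SNLD1 (log2 0.91 ± 0.17, adjusted p = 0.011). It was the 1 of 46 tested assembly factors outside the family to be called in any RNA-seq comparison. Lyrm7, also among those 46, just missed the threshold in naive ganglia and was lower in Mettl14cKO. Its mean was 5.13 CPM there against 18.5 CPM in naive WT (log2 −1.87 ± 0.39, edgeR adjusted p = 0.0515).

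Tissue-restricted isoforms of complex IV were present at very low levels. Cox6a2 had 2.49, 2.25 and 2.10 CPM in Mettl14cKO at SNLD1 against 1.07, 0.801 and 0.854 CPM in WT at SNLD1 (log2 1.32 ± 0.39, edgeR adjusted p = 0.0960). Naive libraries held 1.79, 2.44 and 1.99 CPM in Mettl14cKO against 1.26, 1.23 and 1.22 CPM in WT (log2 0.74 ± 0.36, adjusted p = 0.671). Neither pair of groups overlapped, against 9.66% of all genes without overlap on the higher side after lesion and 6.11% in naive ganglia. Cox8b, the muscle and brown fat isoform of subunit VIII, was too low to be tested: it had 11, 4 and 28 counts in Mettl14cKO at SNLD1 and 0 to 3 counts in each of the other 9 libraries. That is 1.95, 0.564 and 3.93 CPM against 0 to 0.448 CPM. With no filter on low counts edgeR called it higher in Mettl14cKO at SNLD1, both against naive Mettl14cKO (adjusted p = 0.00983, where 1.09% of 21184 genes were called higher) and against WT at SNLD1 (adjusted p = 0.00243, 1.58% of all genes). It passes the filter only when certain libraries are left out, and then through the group in which it is high, so those fits add no support. Their adjusted p ran from 0.0474 to 0.365 for lesion in Mettl14cKO and from 0.0321 to 0.224 for genotype after lesion, the lowest of each without Mettl14cKO SNLD1 library 2, where 0.503% and 0.48% of all genes were called higher. Adipocyte markers stood higher in libraries 1 and 3 of that group, with Adipoq at 10.3, 0.14 and 11.2 CPM and Ucp1 at 1.07, 0.28 and 4.63 CPM in Mettl14cKO at SNLD1. The 6 adipocyte markers summed to 4.7 to 27.8 CPM there, against 3.8 to 6.1 in naive Mettl14cKO, 3.8 to 7.9 in WT at SNLD1 and 4.2 to 6.0 in naive WT. Their part in the Cox8b counts was not tested. Skeletal muscle markers other than Pvalb, which sensory neurons also express, summed to 5.94 to 16.0 CPM in all 12 libraries. The other 4 members too low to be tested in RNA-seq were Cox4i2, Cox7b2, Cox8c and Ndufa4l2, all in complex IV.

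The common partners of those isoforms were well above the detection limit, and none was called between genotypes. Means after lesion were 149 ± 30.5 CPM (SD, n = 3) in Mettl14cKO against 107 ± 41.2 in WT for Cox6a1, 884 ± 92.8 against 718 ± 128 for Cox4i1, and 122 ± 23.1 against 109 ± 37.0 for Cox5a. Cox5b averaged 237 ± 69.0 CPM in Mettl14cKO against 166 ± 60.9 in WT, Cox7a2 934 ± 384 against 725 ± 121, and Cox8a 193 ± 43.2 against 158 ± 47.7. Log2 differences of these 6 genes after lesion lay between 0.16 and 0.52 with edgeR adjusted p values of 0.363 to 0.826. Cox7a1, the muscle isoform of subunit VIIa, averaged 9.31 ± 1.17 CPM in Mettl14cKO against 11.3 ± 2.72 in WT at SNLD1 (log2 −0.28). Among the 3 genes for the c-ring of complex V, Atp5g3 averaged 213 ± 31.3 CPM in Mettl14cKO and 164 ± 15.9 in WT at SNLD1 (log2 0.38 ± 0.17, adjusted p = 0.312), Atp5g1 910.2 ± 158 and 861 ± 119, and Atp5g2 80.8 ± 21.1 and 70.7 ± 7.67.

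**Figure D1:**
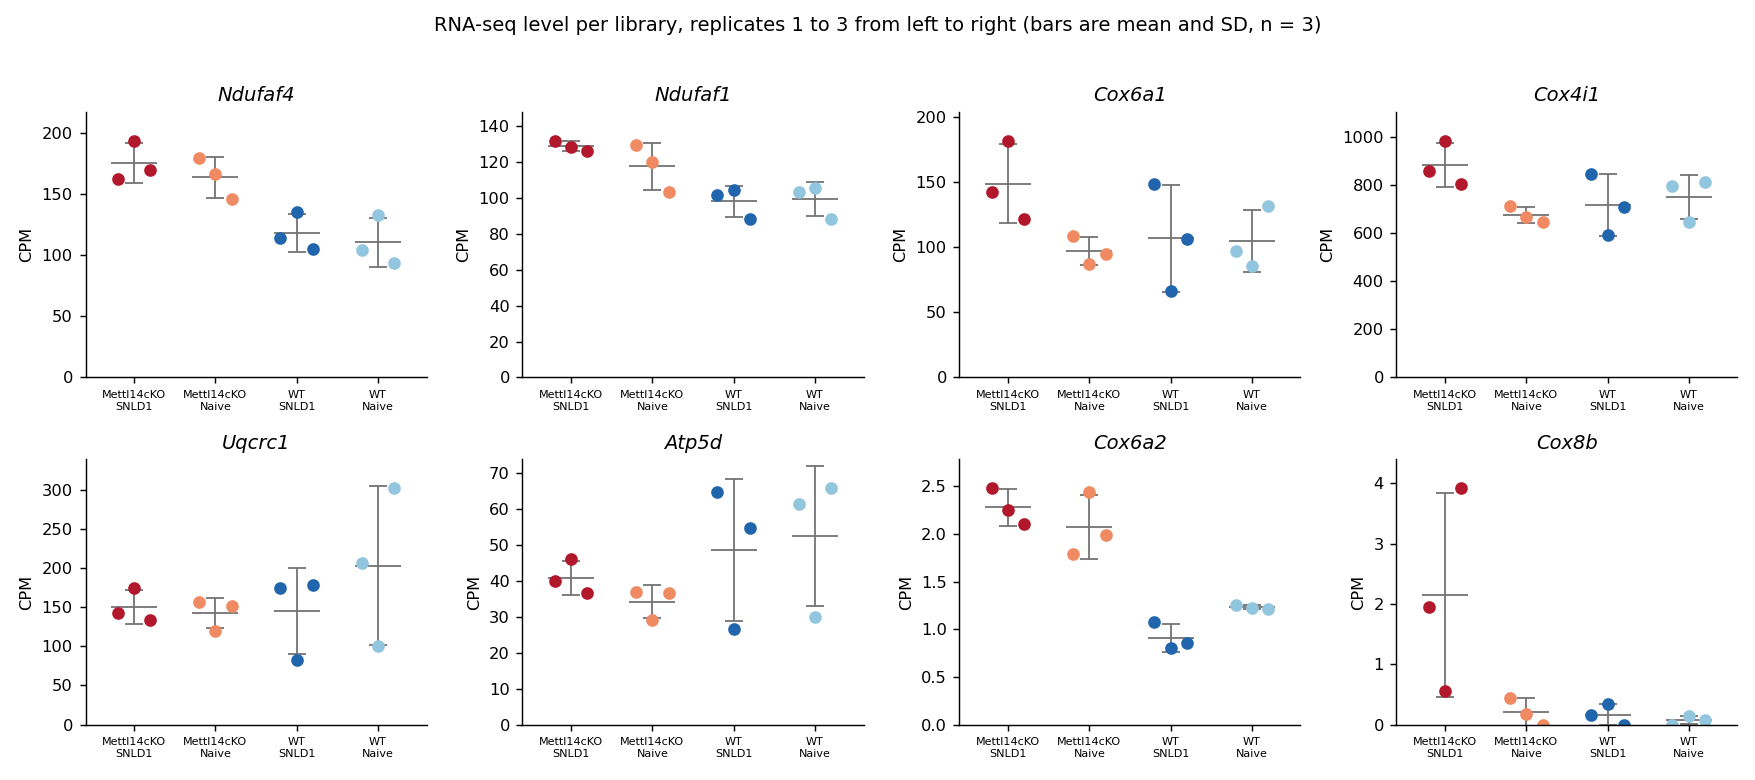
RNA-seq level in CPM (y axis) of 8 members in each of the 12 libraries, by group on the x axis, with points in the order of the library number and lines for mean and SD (n = 3). Ndufaf4 sits at 146 to 194 CPM in the 6 Mettl14cKO libraries and at 94.1 to 136 CPM in the 6 WT libraries, whereas Uqcrc1 and Atp5d overlap between all groups.

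Complex II, which also serves in the citric acid cycle, had the smallest median among the complexes after lesion (0.12 between genotypes). Sdha, its flavoprotein subunit, had 916, 749.9 and 1067 CPM in Mettl14cKO at SNLD1, 899, 1021 and 931 CPM in naive Mettl14cKO, 786, 1042 and 829 CPM in WT at SNLD1 and 789, 1086 and 814 CPM in naive WT. Sdhb, the iron-sulphur subunit, averaged 1147 ± 181 CPM (SD, n = 3) in Mettl14cKO at SNLD1 and 965 ± 101 CPM in WT at SNLD1. Sdhc averaged 74.8 ± 2.93 and 71.6 ± 8.12 CPM, and Sdhd, the other membrane anchor, 529.7 ± 67.3 and 468 ± 50.5 CPM, in the same order. Log2 differences between genotypes after lesion were 0.04 for Sdha, 0.25 for Sdhb, 0.06 for Sdhc and 0.18 for Sdhd, with adjusted p values of 0.51 to 0.94. Cycs, the electron carrier between complexes III and IV, had 2419, 3078 and 1887 CPM in Mettl14cKO at SNLD1, 2633, 2248 and 1614 CPM in naive Mettl14cKO, 2241, 2407 and 1774 CPM in WT at SNLD1, and 1896, 2303 and 2031 CPM in naive WT. All groups overlapped (log2 0.20 ± 0.20 between genotypes after lesion, adjusted p = 0.70). Among the members that took the most counts of their complex, Ndufv2 in complex I averaged 713 CPM over the 12 libraries, Uqcrq in complex III 652 CPM, Ndufa4 in complex IV 1561 CPM and Atp5f1 in complex V 1145 CPM. Atp5d, the delta subunit of the F1 part, had the lowest value among genotype differences in naive ganglia: 36.9, 29.0 and 36.6 CPM in Mettl14cKO against 61.3, 30.0 and 65.8 CPM in WT (log2 −0.62 ± 0.29, adjusted p = 0.649), with overlap.

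The members varied together from library to library. Of 88 tested members, 66 (75%) were highest in Mettl14cKO SNLD1 library 2, against 15.3% of all genes tested, and 40 (45.5%) were lowest in naive Mettl14cKO library 3, against 8.34%. The lowest level was in WT SNLD1 library 2 for another 23 (26.1%), against 11.2% of all genes. Summed over all members, Mettl14cKO at SNLD1 held 40548, 51720 and 31828 CPM and naive Mettl14cKO 42925, 35671 and 28539 CPM, against 37547, 35724 and 30203 CPM in WT at SNLD1 and 32136, 35842 and 38564 CPM in naive WT. Mettl14cKO at SNLD1 thus holds the highest sum of the 12 and also the third lowest. Without Mettl14cKO SNLD1 library 2, the median log2 difference was 0.02 for lesion in Mettl14cKO (55 of 90 tested above 0) and 0.07 for genotype after lesion (63 of 90). Without naive Mettl14cKO library 3 the median for lesion in Mettl14cKO was 0.07. The difference between lesion effects had a median of 0.10 without Mettl14cKO SNLD1 library 2 and 0.13 without naive Mettl14cKO library 3. That difference was also lower without naive WT library 3 (0.20) and without WT SNLD1 library 3 (0.21). For genotype after lesion the median was 0.21 without WT SNLD1 library 3 and 0.26 without WT SNLD1 library 2. Leaving out certain other libraries raised the shift. Without Mettl14cKO SNLD1 library 3 the median was 0.38 for lesion in Mettl14cKO, with 37 of 89 members at an unadjusted p under 0.05 (13.7% of all genes). It was 0.42 for genotype after lesion, with 42 of 89 (16.3% of all genes), and 0.48 for the difference between lesion effects, with 17 of 89 (5.09% of all genes). Without naive Mettl14cKO library 1 the median for lesion in Mettl14cKO was 0.38, with 25 of 90 (11.5% of all genes). No member was called in these 4 fits. Library 2 of Mettl14cKO at SNLD1 also had the highest fibroblast marker sum (4289 CPM, against 3295 and 2631 in its group and 1720 to 3418 in the other 9 libraries) and the highest macrophage sum (144 CPM, against 108 and 70.7 in its group). The part of those cells in the result was not tested.

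**Figure D2:**
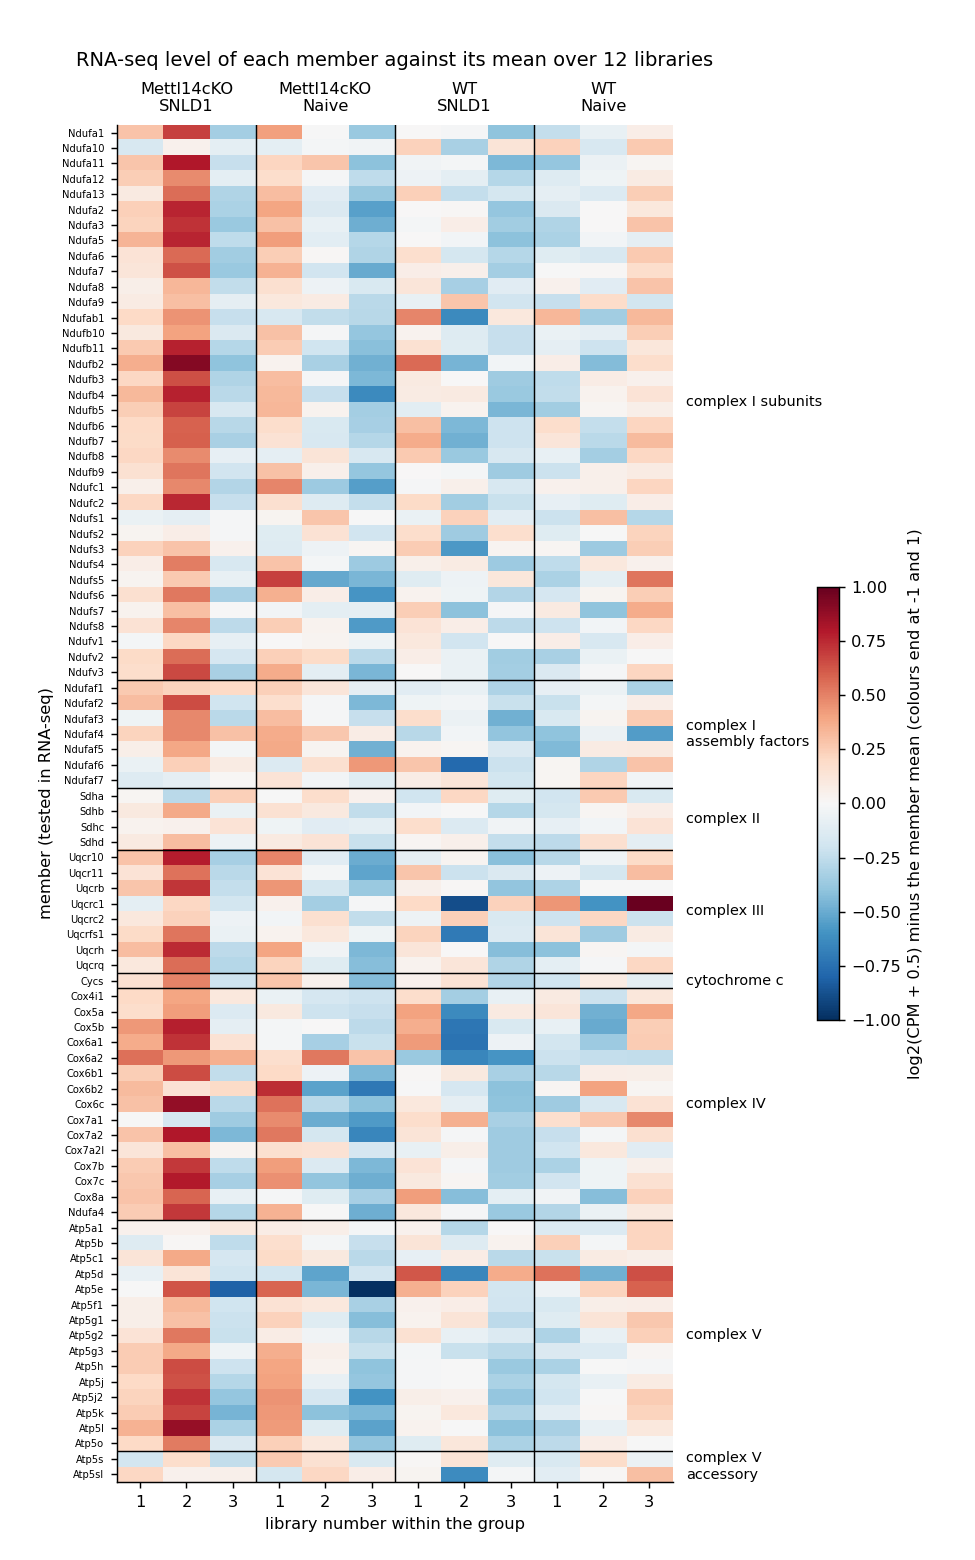
Each row is a tested member and each column an RNA-seq library (numbers 1 to 3 within each of 4 groups). Colour gives log2(CPM + 0.5) minus the mean of that member over 12 libraries. The column of Mettl14cKO SNLD1 library 2 is the highest for 66 of 88 members, and that of naive Mettl14cKO library 3 the lowest for 40.

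Other mitochondrial and growth-related lists give the scale. Cytoplasmic ribosomal protein genes followed the same libraries with a wider swing: their median log2 deviation was 0.34, 0.84 and −0.14 in Mettl14cKO at SNLD1, against 0.19, 0.51 and −0.21 for the members. Their median log2 difference was 0.41 for lesion in Mettl14cKO (82 of 82 above 0, 0 called) and 0.48 for genotype after lesion (80 of 82, 0 called). Mitochondrial ribosomal protein genes had medians of 0.14 and 0.20 in those comparisons, with 1 of 77 called higher in the second. Citric acid cycle enzymes had 0.01 and 0.07 (18 tested, 0 called), glycolytic enzymes 0.10 and 0.16 (17 tested, 0 called) and genes of mitochondrial dynamics and import 0.02 and 0.06 (26 tested, 0 called). Regulators of mitochondrial biogenesis had 0.04 and 0.01 (15 tested, 0 called). Among these, Ppargc1a, the coactivator PGC-1alpha, had a log2 difference of −0.51 for lesion in Mettl14cKO (adjusted p = 0.211), and Gabpa, the ETS subunit of GABP, −0.70 for genotype after lesion (adjusted p = 0.0782).

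**Figure D3:**
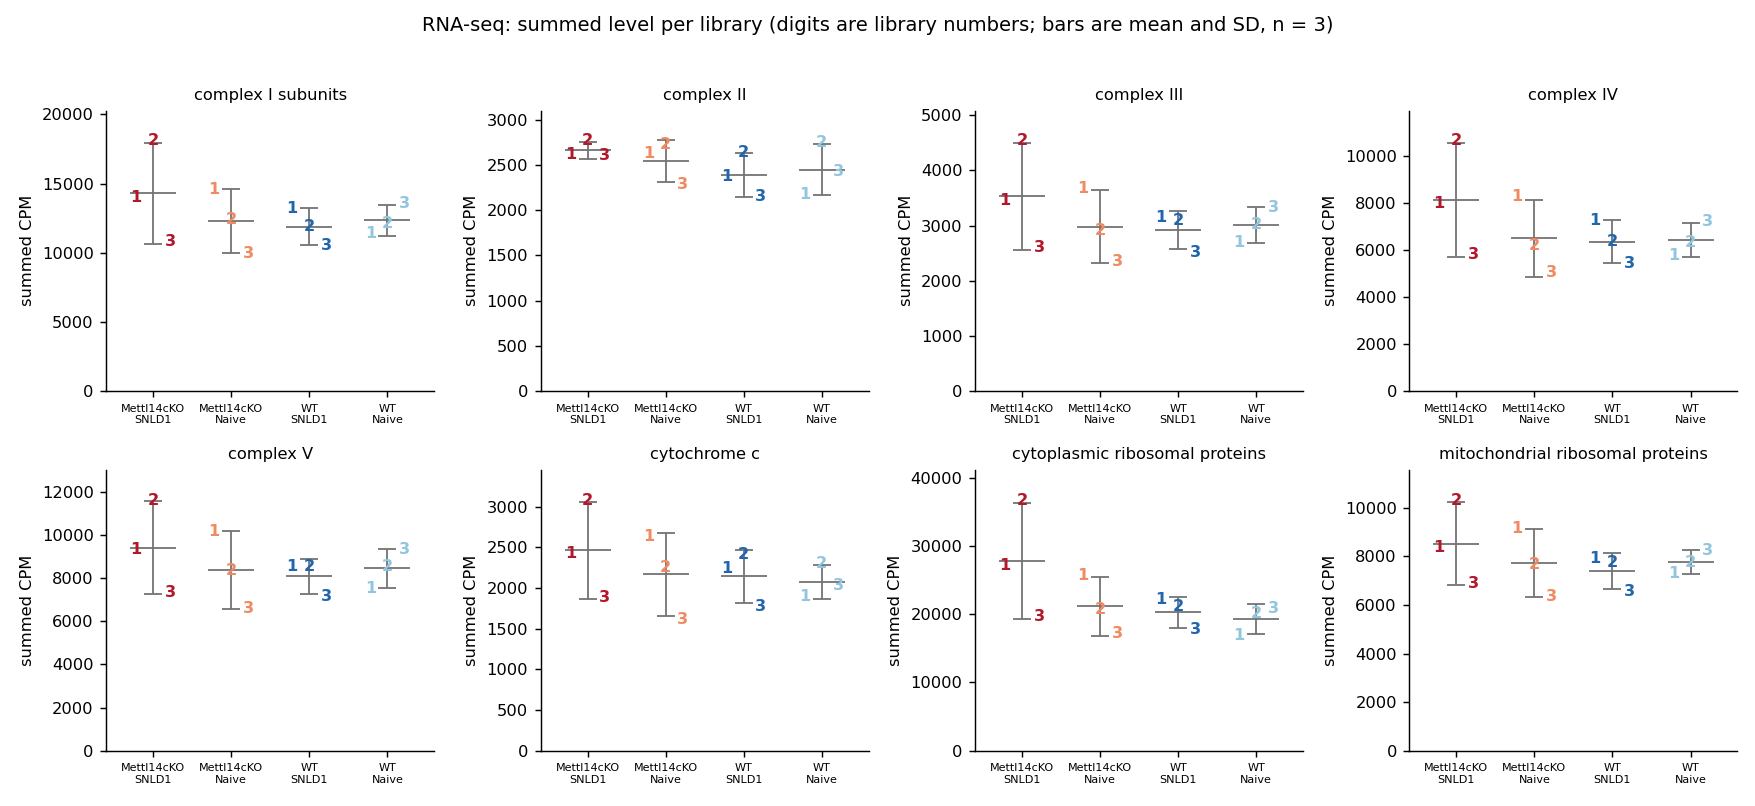
Summed CPM (y axis) of each complex, of cytochrome c and of both ribosomal protein lists in the 12 RNA-seq libraries, with groups on the x axis, digits for library numbers and bars for mean and SD (n = 3). Library 2 is the top of Mettl14cKO at SNLD1 in every panel, and the complex I sum there is 18102 CPM against 10819 CPM in library 3 of the same group.

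miCLIP placed m6A positions inside 48 of the 93 members. With 1 library per condition there is no test, and intervals cover counting error only. The members held 72 of the 18677 positions in the SNL list, in 34 genes, and 64 of the 14446 in the naive list, in 32 genes. Together they mark 118 positions, 18 of them at the same base in both lists. Sites were found in 19 complex I subunits, 1 Ndufaf gene, all 4 complex II genes, 6 of 8 in complex III, 7 of 20 in complex IV and 10 of 15 in complex V, and in none for Cycs. The only positions in Cox7a2, both in the SNL list, also lie within Tmem30a on the same strand. Which of these genes they belong to cannot be told, so the place of Cox7a2 in these counts is uncertain. Of 109 positions whose surrounding bases are given here, 85 had GAC and 24 had AAC at the centre (78.0% GAC, against 82.3% of all positions), and every position listed outside chromosome 18 has either. None of those 28584 positions has C as the first or G as the last of its 5 bases. The lists thus hold a single motif form, so the motif is no separate evidence of m6A. The 5 bases GGACT were the commonest around member positions (17, or 15.6%, against 11% of all).

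Atp5b, the catalytic beta subunit of complex V, carried the most entries, 11 in the SNL list and 10 in the naive list, spread along the gene. Atp5a1, its alpha partner, had 4 and 6, Ndufb7 3 and 5, Cox7a2l 4 and 2, Ndufb8 2 and 4, Ndufv1 4 and 1, Uqcrc1 3 and 2, and Uqcr11 4 and 0, in the order SNL then naive. Support at single positions was thin, with a median of 5 reads at member positions in SNL and 4 in naive, and 3 entries in each list had 3 or more mutated reads. The Cox6a1 position printed above had 5 of 27 reads mutated in SNL (18.5%, 95% exact interval 6.30 to 38.1) and 3 of 17 in naive (17.6%, 3.80 to 43.4). The Ndufb7 position had 3 of 11 in SNL (27.3%, 6.02 to 61.0) and 3 of 10 in naive (30.0%, 6.67 to 65.2). At both, the shares lie within each other's intervals. The Atp5b position was listed in naive only (3 of 10 reads) and the Uqcr11 position in SNL only (3 of 12, 25%, 5.49 to 57.2). Absence from a list at these depths does not show an unmodified base.

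Of 75 tested members with a known strand, 34.7% had a site in SNL (95% exact interval 24.0 to 46.5) and 38.7% in naive (27.6 to 50.6). Over all 10558 tested genes the shares were 36.4% and 31.4%. Since highly expressed genes give more reads, 1006 other genes at or above the lower quartile of the members' CPM were set beside them. Their shares were 56.4% (53.3 to 59.5) in SNL and 48.7% (45.6 to 51.9) in naive. All 75 members were kept, also those below that quartile, so the levels are not matched. In naive the intervals overlap. The span of a member is short, with a median of 7394 bases against 25118 for tested genes. Of 98 member positions on genes of known strand, 24.5% lay in the first 10% of the gene span and 28.6% in the last 10%, against 13.6% and 35.2% of the positions in all tested genes. Glycolytic enzymes had a site in 82.4% in SNL and 76.5% in naive, and cytoplasmic ribosomal protein genes in 32.8% and 23.0%.

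**Figure D4:**
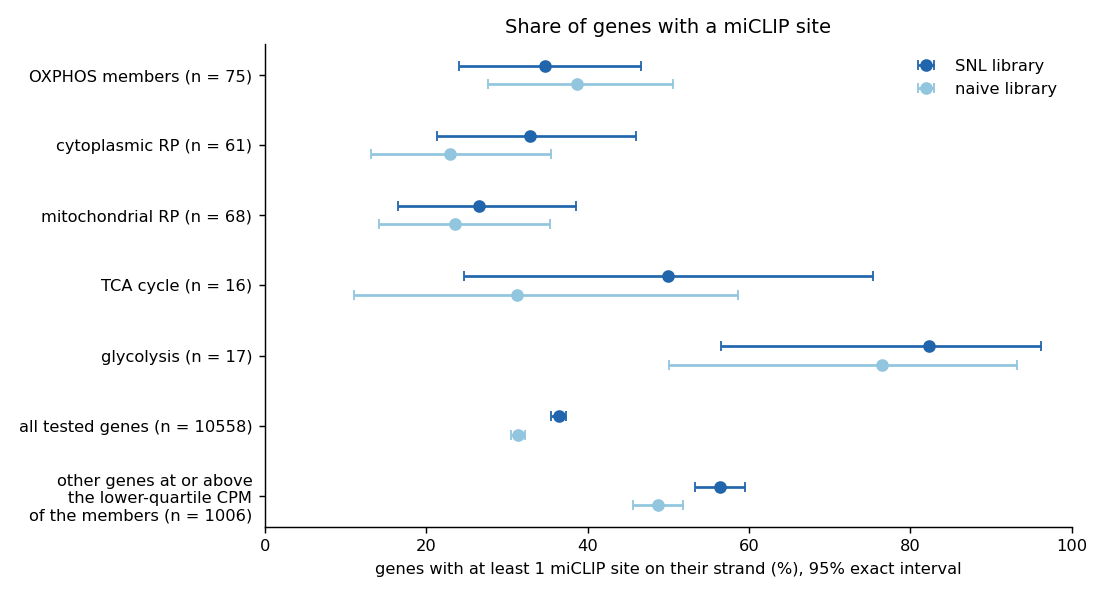
Share of genes (x axis, percent, bars are 95% exact binomial intervals) with at least 1 miCLIP position on their strand in the SNL and the naive library, for the oxidative phosphorylation members, other gene lists and all tested genes. The members, at 34.7% and 38.7%, lie below other genes of like or higher level, at 56.4% and 48.7%.

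In MeRIP-seq the IP libraries numbered 3 stood apart from the other IP libraries in both conditions. Across genes they correlated at 0.85 to 0.94 (Spearman) with the inputs but at 0.69 to 0.79 with IP libraries 1 and 2, which themselves correlated at 0.61 to 0.75 with the inputs. The members took 1.93%, 1.23% and 4.11% of counts in SNLD1 IP libraries 1, 2 and 3, against 3.32% and 5.05% in SNLD1 inputs, and 1.35%, 1.29% and 4.31% in naive IP, against 3.46% and 3.84% in naive inputs. Results are therefore given with all libraries and without both IP libraries 3, a setting chosen after seeing these shares.

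The tested members lay below input in IP libraries 1 and 2 and near it in library 3. The median log2 of IP over the mean input was −1.83 and −2.57 in SNLD1 libraries 1 and 2 and −2.21 and −2.36 in naive ones, with 82 to 84 of 90 tested members below 0, against medians of 0.00, −0.59, 0.01 and −0.41 over all genes. In library 3 it was −0.14 at SNLD1 and −0.03 in naive. With all libraries no gene of 14705 was called by edgeR between IP and input in either condition (0.0% higher and 0.0% lower, 4.13% at an unadjusted p under 0.05 at SNLD1 and 6.22% in naive), and DESeq2 called 0 at SNLD1 and 1 in naive, not a member. Among the 90 tested members, 8 at SNLD1 and 7 in naive had an unadjusted p under 0.05, all lower in IP. Medians were −1.15 at SNLD1 and −0.93 in naive, with 14 of 90 above 0 in each, against 0.10 and 0.07 over all genes (52.7% and 51.8% above 0). No overlap with a lower IP was seen for 29 members at SNLD1 (12.1% of all genes) and 34 in naive (16.5% of all genes).

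**Figure D5:**
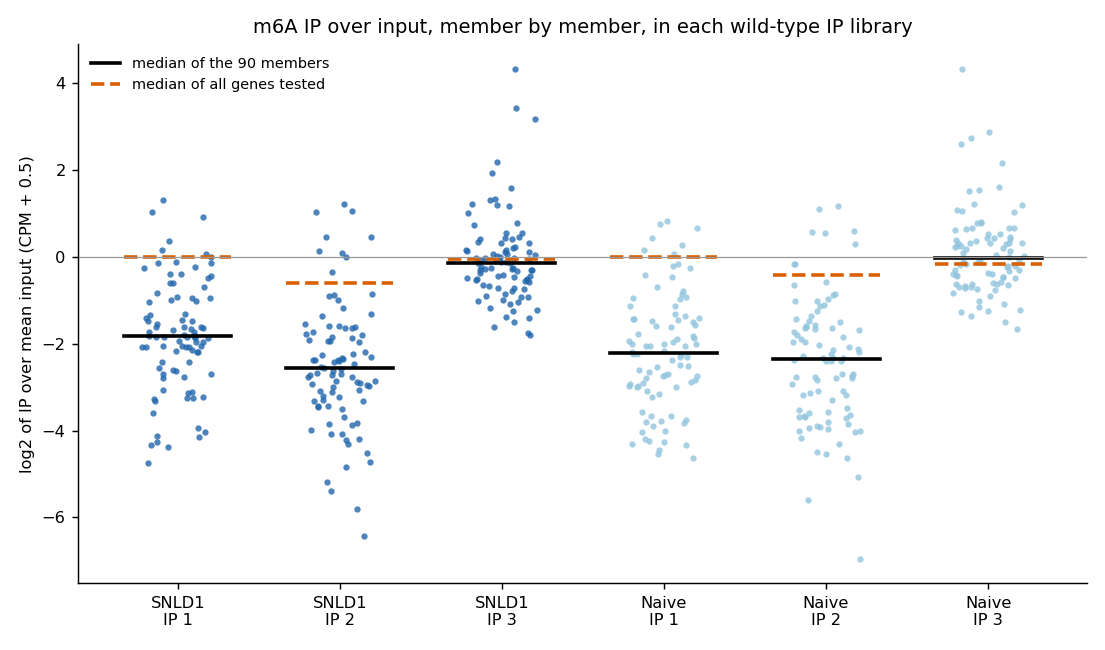
Each point is 1 of the 90 tested members in 1 WT IP library (x axis). The y axis gives log2 of its CPM + 0.5 in that IP library over its mean in the inputs of the same condition, solid lines are the members' medians and broken lines those of all genes tested. Medians are −1.83 and −2.57 in SNLD1 libraries 1 and 2 but −0.14 in library 3, with the same pattern in naive libraries.

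Without both IP libraries 3, 3 of 87 tested members were called lower in IP at SNLD1 (0.806% of 14522 genes) and 13 in naive (1.77%). None was called higher (0.0% and 0.0138% of all genes). That setting was chosen after the members' own shares were seen, so these calls describe the split and are not separate support. The medians were −2.21 and −2.35, against 0.07 over all genes in each. Those called at SNLD1 were Uqcrc2 (log2 −4.73 ± 0.83 SE, adjusted p = 0.0427), a core protein of complex III, Atp5c1 (−4.20 ± 0.76, adjusted p = 0.0427), the gamma subunit that turns within F1, and Ndufb5 (−3.66 ± 0.78, adjusted p = 0.0443), an accessory subunit of complex I. In naive ganglia those 3 were called at −4.73, −4.25 and −4.99, together with Cox4i1 (−3.76), Atp5g1 (−3.87), Ndufa4 (−3.87), Cox7a2 (−4.18), Sdhb (−3.44), Sdhc (−4.11), Ndufb3 (−3.46), Atp5f1 (−2.97), Ndufa6 (−3.17) and Ndufa7 (−3.28). By complex the naive medians were −2.41 for complex I subunits, −2.89 for complex II, −1.50 for complex III, −3.06 for complex IV and −2.71 for complex V.

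Values per library make the split plain. Ndufb5 had 46.3, 27.2 and 134 CPM in SNLD1 IP libraries 1 to 3 against 403 and 534 CPM in SNLD1 inputs, and 18.2, 8.48 and 154 CPM in naive IP against 463 and 409 CPM in naive inputs. Uqcrc2 had 22.9, 10.2 and 302 CPM in SNLD1 IP against 522 and 371 in input, and 25, 16.0 and 308 CPM in naive IP against 653 and 455 in input. In both genes every IP library lies below every input, libraries 1 and 2 farther than library 3. Cox7a2, a subunit of complex IV, had 264, 45.8 and 395 CPM in SNLD1 IP against 1049 and 1382 in input, and 86.6, 49.95 and 389.7 CPM in naive IP against 1125 and 1358 in input. Its log2 difference with all libraries was −2.82 in naive, the smallest p of any member (0.0126, edgeR adjusted p = 0.710).

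A few members lay near or above input. Ndufaf1 had 167, 183 and 204 CPM in SNLD1 IP against 85.6 and 91.7 in SNLD1 input (log2 1.06, edgeR adjusted p = 0.791), and 174, 278 and 189 CPM in naive IP against 118 and 142 in naive input. All 3 IP libraries were above both inputs in each condition, as in 10.3% of all genes at SNLD1 and 12.7% in naive. Cox7a2l, with several miCLIP positions near the end of its gene, had 273, 759 and 1256 CPM in SNLD1 IP against 267 and 389.5 in input, and 315, 681 and 1356 CPM in naive IP against 293 and 310.0 in input. Cox6a1 and Ndufb7, which held the best-supported miCLIP positions, overlapped with input in both conditions. Cox6a1 had 277, 240.5 and 308 CPM in SNLD1 IP against 235 and 381 in input, and 288, 152 and 270.3 CPM in naive IP against 331 and 148 in input. Ndufb7 had 297, 180.5 and 561 CPM in SNLD1 IP against 172 and 1019.7 in input, with all 3 below the mean input. In naive ganglia Ndufb7 had 279.6, 223 and 574 CPM in IP against 239.9 and 262 in input. Atp5b, with the most miCLIP entries, had 169.8, 219 and 936 CPM in naive IP against 679.9 and 722 in input (log2 −1.85 ± 0.74 without both IP libraries 3, adjusted p = 0.231).

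Some members were above every other MeRIP library in both IP libraries 3: 15 of 90 (16.7%), against 4.6% of all genes. Of these, 6 had a mean over both IP libraries 3 that was 4 times or more their mean over all 4 inputs (6.67%, against 1.08% of all genes), namely Atp5l, Cox7a2l, Cox7b2, Cycs, Ndufab1 and Ndufs5. Cox7b2 and Ndufs5 rest on few counts, with 0 to 13 and 0 to 1 per input. Outside both IP libraries 3, Cox7b2 reached at most 1.25 CPM and Ndufs5 at most 0.129 CPM. They passed the filter on low counts through the libraries in which they are high, so their part in both shares adds no support. Cycs had 246, 99.0 and 3145 CPM in SNLD1 IP against 358 and 336 in input, and 193, 189 and 3411 CPM in naive IP against 379 and 645 in input, while RNA-seq gave 1896 to 2303 CPM in naive WT. Atp5l had 10.1, 5.09 and 743 CPM in SNLD1 IP against 26.2 and 46.4 in input, and 495 to 667 CPM in naive WT RNA-seq. For these genes the inputs lie far below both IP libraries 3 and RNA-seq. How reads of near-identical gene copies were counted in each library is not given in the sources used here, and its part in these values was not tested.

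The effect of lesion on enrichment was small beside this spread. No gene was called for the change of enrichment, for lesion within IP or for lesion within input (0.0% of 14705 each), and no member had an unadjusted p under 0.05 (0.204%, 0.843% and 0.857% of all genes). DESeq2 called 0, 8 and 1 genes in those comparisons, none of them a member. Member medians were −0.05 for the change of enrichment (40 of 90 above 0, against 52.9% of all genes), 0.06 for lesion within IP (57 of 90, against 49.4%) and 0.11 for lesion within input (52 of 90, against 47.1%). These values changed with single libraries. Without both IP libraries 3 the median was 0.23 for the change of enrichment (63 of 87 above 0) and 0.39 for lesion within IP (71 of 87), again with no gene called. With the replicate number as a block, by which the IP libraries pair, lesion within IP had a median of 0.24 (68 of 90) and 1 gene, not a member, was called higher (0.0068% of all genes). Lesion within input had a median of −0.31 without SNLD1 input 2 (12 of 90 above 0) and 0.38 without SNLD1 input 1 (69 of 91). The smallest p values for the change of enrichment belonged to Cox6a2 (log2 2.17), Ndufs5 (2.54) and Cox7a1 (0.89) above 0 and to Cox4i2 (−2.72), Ndufb7 (−1.30) and Atp5d (−1.22) below it. Within IP they belonged to Uqcrc1 (0.62), Sdhc (0.55) and Cox6b2 (0.60), and to Ndufaf6 (−1.2), Cox4i2 (−1.02) and Cox7b2 (−0.71). Within input they belonged to Atp5d (1.46), Ndufb7 (1.25) and Cox4i2 (1.70), and to Cox6a2 (−1.43), Ndufs5 (−2.12) and Ndufaf1 (−0.55). Ndufs5 had 0 or 1 counts in every MeRIP-seq library other than both IP libraries 3 (43 at SNLD1 and 16 in naive), so its fitted values depend on the prior count. Ndufb7 rests on a single library, with 172 and 1019.7 CPM in SNLD1 inputs against 239.9 and 262 CPM in naive inputs.

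Other lists had the same sign of IP over input in most cases. Without both IP libraries 3, cytoplasmic ribosomal protein genes had medians of −2.90 at SNLD1 (12 of 80 called lower) and −3.86 in naive (38 of 80). Glycolytic enzymes had −1.68 (2 of 17) and −1.86 (2 of 17), citric acid cycle enzymes −1.66 (1 of 18) and −1.54 (2 of 18), genes of mitochondrial dynamics and import −1.16 (2 of 27) and −1.53 (3 of 27), and mitochondrial ribosomal protein genes −0.65 (0 of 77) and −0.52 (3 of 77). Assembly factors outside the family had −0.50 (1 of 46) and −0.79 (3 of 46), and regulators of mitochondrial biogenesis stood above 0 at 1.35 and 1.33 (0 of 15 called).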

How the data were processed

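Used here were 12 RNA-seq libraries, 10 MeRIP-seq libraries, of which 6 were IP and 4 input, and 2 miCLIP libraries. Per the labels' protocols, RNA was taken with Trizol, poly(A)-selected over successive rounds and sequenced from Smart-seq2 libraries. The authors deposited raw counts per gene symbol for RNA-seq and for MeRIP-seq. The authors' miCLIP lists give, per site, reads, mutated reads and a deposited value of unit other that equalled the mutated share to within 1e-05. The submitters' processing notes name Trimmomatic, STAR, DESeq2 and mm10 without versions or roles. Which tool counted the reads, and how it treated those with several matches, is not given in the sources used here.

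The fits used edgeR 4.0.16 in R 4.3.3: filterByExpr (minimum count 10), TMM scaling and a quasi-likelihood F test over all 12 RNA-seq libraries, and separately over all 10 MeRIP-seq libraries, each as 4 groups. Calls are at a Benjamini-Hochberg adjusted p under 0.05, taken over all genes tested in a comparison. CPM are counts over the TMM-scaled library total, and SE is the log2 difference over the square root of F. Members and gene lists were chosen with earlier results of these data known. Named are members called, the 3 of smallest p per direction and comparison, the highest of each complex, Cycs, the Sdh genes, isoform families and the 8 with most miCLIP entries. Ndufs3, Ndufs7, Ndufab1, Cox8b and the Ndufaf genes were also named after their values were seen. Outside the members, pathway genes were named where called, otherwise from the 2 of smallest p per list.

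Sites were put to RefSeq gene spans (GRCm38.p6, the build of mm10) on the gene's strand, known for 77 members, and on either strand for the other 16. All 93 members matched RefSeq, 90 by symbol and 3 by synonym. Exons and transcript lengths were not used here, so the planned level per kilobase was not computed. Intervals are Clopper-Pearson at 95%. Alternatives were DESeq2 1.42.0, its size factors, no filter, the compared libraries alone, a replicate block, leaving out each library, MeRIP-seq without libraries under 2000000 counts and, chosen after seeing the data, without both IP libraries 3. Deviations of same-numbered libraries from their group means correlated at 0.75, 0.55 and 0.81 between SNLD1 IP and naive IP, so those numbers pair the libraries for lesion within IP. No other pair of groups compared here met that rule with 3 pairs. The scripts were tested on simulated data. Other software was Python 3.11.15 with numpy 2.4.6, pandas 2.3.3, scipy 1.17.1 and matplotlib 3.10.9.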

Additional observations from a re-analysis of the deposited data

How the results depend on the processing

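The smallest MeRIP-seq libraries were SNLD1 IP 2 (1534778 counts), naive IP 2 (846785) and SNLD1 input 1 (927807), and without them the median of IP over input was −1.10 at SNLD1 and −0.62 in naive. In RNA-seq the median SE of a single gene's log2 difference was 0.24. It does not measure the error of the members' median, which changed with single libraries. The miCLIP positions rest on a median of 4 to 5 reads. Of 373 values that answer a comparison, 354 kept their direction and side of the threshold or, where untested, stayed within the spread between replicates. Among the other values compared, 679 stayed the same, 10 became stronger and 30 reversed. Few members were called in any setting, so keeping a side of the threshold was likely beforehand and says little about stability. The causes of the changes were not tested. Over all genes, DESeq2 called 150 higher and 39 lower for lesion in Mettl14cKO (edgeR 83 and 8), 190 and 21 for lesion in WT (126 and 10), 229 and 187 for genotype after lesion (126 and 68) and 45 and 32 for genotype in naive ganglia (23 and 15). With no filter edgeR called 230 and 51, 232 and 24, 334 and 236, and 107 and 84 in that order.

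Members called higher for lesion in Mettl14cKO numbered 1 (Cox8b) with no filter on low counts and 0 to 1 when single libraries were left out, the 1 being without Mettl14cKO SNLD1 replicate 2. For genotype after lesion they numbered 1 with DESeq2 and with the replicate block (Ndufaf4, where the block called 184 of all genes higher and 102 lower), 1 with no filter (Cox8b) and 0 to 1 on leaving out a library. The replicate numbers met the rule for pairing in none of the 4 pairs of RNA-seq groups compared, with correlations of −0.042, 0.041 and 0.15 between Mettl14cKO and WT at SNLD1. They were all over 0.1 for WT SNLD1 and naive Mettl14cKO, which are not compared. With the replicate block, 47 members in naive and 41 at SNLD1 were called lower in IP than input (1030 and 892 of all genes, against 0 without it), with medians of −2.39 and −2.32, although IP and input of the same number correlated between −0.35 and 0.00 within a condition. No input is numbered 3, so the block's term for that number rests on both IP libraries 3 alone. Those libraries then no longer set the level of IP over input. For IP over input the block is thus close to leaving them out and is not a separate alternative. The block changed no other member call, but the median change of enrichment was 0.098 with it (55 of 90 above 0). Without both IP libraries 3 the counts were 13 and 3, with a median of −2.35 in naive. Leaving out single libraries, the naive median ran from −2.34 to −0.67, the SNLD1 median from −2.21 to −0.51, the change of enrichment from −0.97 to 1.10 and lesion within IP from −0.85 to 1.31. Where this left 1 library in a group, its spread was taken from the others. Sites with at least 3 mutated reads numbered 3 in SNL, 3 in naive and 2 in both.

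Signs turned for some single members. Both IP libraries 3 have a term of their own with the block. There, IP over input in naive was −2.80 for Ndufs5 and −3.18 for Atp5l, and at SNLD1 −1.51 and −2.45. Without both IP libraries 3, Atp5l was −3.48 in naive and −2.25 at SNLD1. With DESeq2, Ndufs5 within input was 0.32. On leaving out single libraries, the lesion effect in WT ran from −0.0099 to 0.26 for Ndufaf4, −0.040 to 0.23 for Uqcrc2 and −0.069 to 0.22 for Ndufa9, in Mettl14cKO from −0.21 to 0.0021 for Atp5b, genotype after lesion from −0.55 to 0.0086 for Atp5d, and the difference between lesion effects from −0.21 to 0.089 for Sdha. IP over input ran from −3.47 to 3.35 in naive and −2.24 to 3.38 at SNLD1 for Atp5l. The change of enrichment ran from −7.27 to 0.65 for Cox4i2, −2.08 to 0.50 for Ndufb7 and −1.91 to 0.17 for Atp5d. Within IP, Sdhc ran from −0.45 to 2.09, Ndufaf6 from −4.58 to 1.11, Cox4i2 from −5.57 to 2.35 and Cox7b2 from −1.13 to 0.049. Within input, Ndufb7 ran from −0.55 to 2.03, Cox4i2 from −0.079 to 2.38 and Ndufs5 from −2.98 to 0.00.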
